A study of Sus scrofa with 18 samples.

Results

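The genes described here encode 8 proteins that take sphingolipids apart in the lysosome: the activator proteins PSAP and GM2A, the sugar-removing enzymes HEXA, GLB1 and GLA, the sulfatase ARSA, the sphingomyelinase SMPD1 and the ceramidase ASAH1. They were chosen by name, and every probe set whose only gene symbol was one of these names was taken, which gave 12 of the 24123 probe sets in the file. Of these 12, 11 passed the filter on dim probe sets and 1, a second probe set of PSAP, did not. PSAP and GM2A had 2 probe sets each, SMPD1 had 3 and each of the other 5 genes had 1. Each gene is represented by its brightest probe set, and the 8 genes stand among 5710 genes with a tested probe set.

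Retinas came from 18 male domestic piglets (Landrace x Large White), killed at postnatal day 38, with 1 Affymetrix array per piglet. The piglets entered the study at 3 days of age and were placed at random on pig milk replacer alone (control, 9 piglets) or on pig milk replacer with sialyllactose (supplemented, 9 piglets), so that milk replacer was common to both groups. Sialyllactose is a milk sugar in which sialic acid is joined to lactose. The labels give no amount of sialyllactose and no litter. The title of the series names the benefit of sialyllactose for retinal development and vision as its subject, and sialic acid is also the sugar that defines gangliosides.

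Sphingolipids are membrane lipids built on ceramide, and neurons carry many of them as gangliosides, while myelin carries them as sulfatide and galactosylceramide. In the lysosome their head groups are removed step by step by soluble hydrolases, many of which reach the lipid only with the help of a small activator protein. Inherited loss of these proteins causes storage diseases, and in several of them, among them Tay-Sachs disease and GM1 gangliosidosis, lipid stored in retinal ganglion cells gives the macula its cherry-red spot.

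RNA of the main retinal cell classes was present. SAG, the rod arrestin, had a mean of 10.6 on the log2 scale of the deposited values, ARR3, the cone arrestin, 9.63, and GLUL, the glutamine synthetase of Mueller glia, 10.5. Of the microglia markers, AIF1 at 1.70 and C1QA at 1.47, under the filter, lay near the floor. LAPTM5 was at 2.62 and ranged from 2.09 to 3.40 between retinas. TTR, a marker of pigment epithelium, ranged from 4.54 to 8.32 between retinas. Arrays correlated with each other between 0.981 and 0.992 over the 16799 tested probe sets, and no pair held identical values. Because whole retina was used, fewer cells of a type and less RNA per cell cannot be told apart.

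The first question was how strongly each of the 8 genes was measured and how much it varied between retinas. The brightness of a probe set depends on its probes as well as on the RNA, so the values of different genes are not ranked against each other here. Their position among the tested probe sets says only how far each lay above the dim end. Tested probe sets had a median mean level of 3.87 and a lowest mean of 1.48.

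The activator proteins have no catalytic activity of their own. PSAP, prosaposin, is the precursor that is cut into the saposins, which lift lipids out of the membrane or help the enzymes that cleave ceramide, glucosylceramide, sulfatide and globotriaosylceramide. Its brightest probe set ranged from 7.11 to 7.30 with a median of 7.19 in controls, and from 7.06 to 7.25 with a median of 7.16 in supplemented piglets. The groups overlapped almost fully, and the whole span of the 18 retinas was 1.18-fold. The SD within diets was 0.06 on the log2 scale, at percentile 0.464 of the tested probe sets, where the median was 0.16. The second PSAP probe set, under the filter, had a mean of 1.07.

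GM2A, the GM2 activator, presents GM2 ganglioside to the hexosaminidase that contains HEXA. Its brightest probe set ranged from 3.14 to 3.54 with a median of 3.34 in controls, and from 3.09 to 3.92 with a median of 3.38 in supplemented piglets. Piglets 3 and 7 of the sialyllactose group, at 3.92 and 3.87, lay above all other retinas, while the other 7 lay within or below the control range. In the second GM2A probe set, with a mean of 2.28, these 2 piglets were at 2.13 and 2.46, inside the control range of 2.08 to 2.63. Over the 18 retinas the GM2A probe sets correlated at Pearson r = 0.05 and Spearman rho = 0.04 (permutation p = 0.858 and 0.887).

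Among the enzymes that remove sugars, HEXA, the alpha chain of beta-hexosaminidase, ranged from 6.07 to 6.32 (median 6.20) in controls and from 6.02 to 6.29 (median 6.20) in supplemented piglets. GLB1, the beta-galactosidase that turns GM1 into GM2 ganglioside, ranged from 2.31 to 2.89 (median 2.62) and from 2.30 to 2.77 (median 2.52). GLA, the alpha-galactosidase that acts on globotriaosylceramide and is lost in Fabry disease, ranged from 4.43 to 4.76 (median 4.53) and from 4.42 to 4.76 (median 4.57). In each of these 3 enzymes the sialyllactose values lay inside the control range except for 1 piglet just below it. The SD within diets was 0.10 for HEXA and 0.11 for GLA, under the median spread of 0.16, and 0.18 for GLB1, above it.

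ARSA, the arylsulfatase that removes sulfate from sulfatide and is lost in metachromatic leukodystrophy, ranged from 2.85 to 3.32 with a median of 3.12 in controls, and from 3.08 to 3.43 with a median of 3.22 in supplemented piglets. The 4 lowest retinas were control piglets 6, 8, 7 and 4, and 2 supplemented piglets lay above the highest control. The groups overlapped between 3.08 and 3.32.

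SMPD1, the acid sphingomyelinase, makes ceramide from sphingomyelin, and ASAH1, the acid ceramidase, cleaves ceramide into sphingosine and a fatty acid. The brightest SMPD1 probe set ranged from 2.95 to 3.42 with a median of 3.05 in controls, and from 2.87 to 3.34 with a median of 3.18 in supplemented piglets. ASAH1 varied the most of the 8 on the log2 scale, from 1.21 to 2.27 with a median of 1.47 in controls and from 0.87 to 2.04 with a median of 1.51 in supplemented piglets. Its SD within diets was 0.36, at percentile 97.5 of the tested probe sets, while its mean level of 1.57 stood just above the lowest tested mean. The highest ASAH1 values belonged to control piglets 2, 8 and 1 and to supplemented piglets 1 and 9, so that high and low retinas occurred in both groups.

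**Figure D1:**
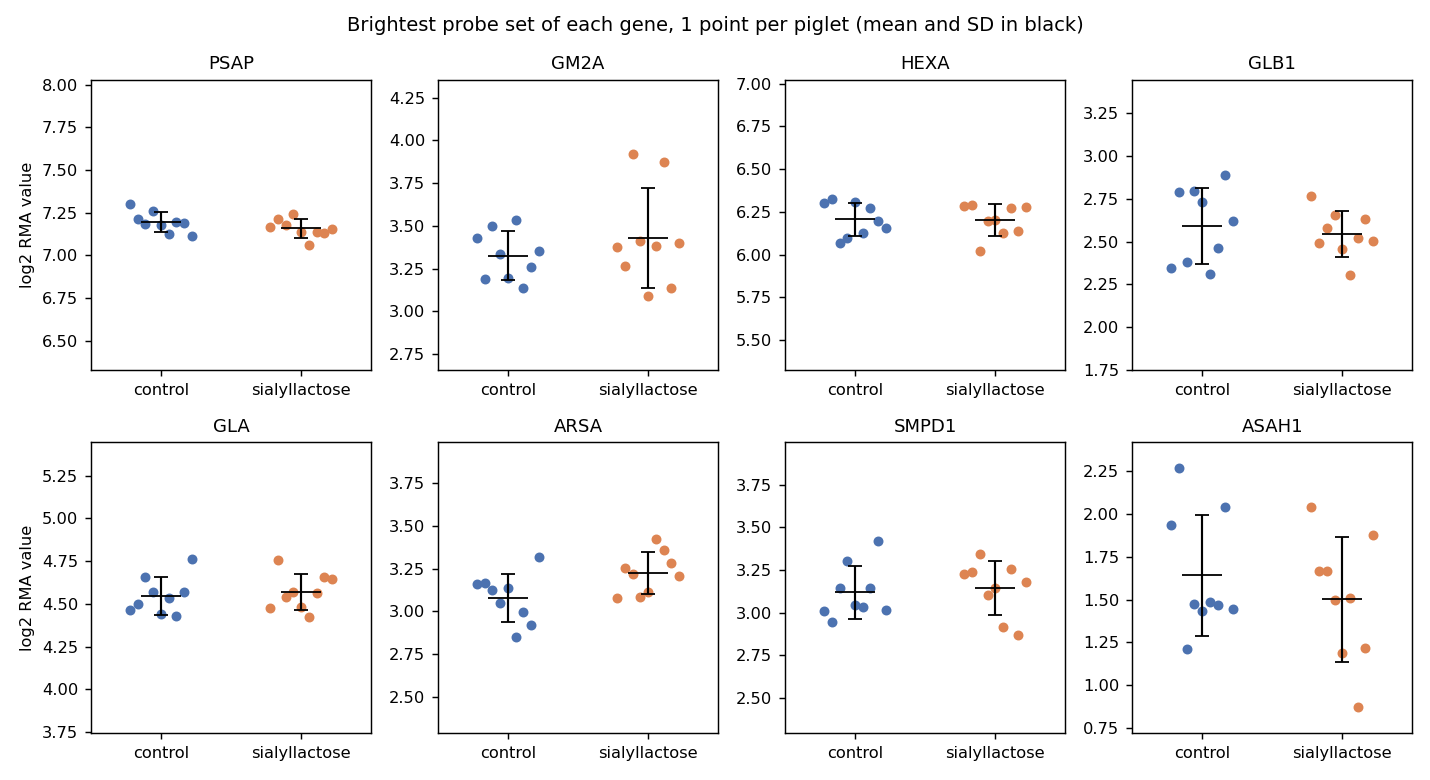
Deposited log2 values of the brightest probe set of each of the 8 genes in 9 control and 9 supplemented piglets, 1 point per piglet, with the group mean and SD in black; every panel spans the same number of log2 units. PSAP and HEXA form tight clouds, ASAH1 spreads from 0.87 to 2.27, and 2 supplemented piglets stand above the rest in GM2A.

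The second question was whether the diets differed in these genes. Of the 8 genes, 4 had higher and 4 had lower means with sialyllactose, and the limma test called none of them after Benjamini-Hochberg adjustment over all tested probe sets (adjusted p from 0.773 to 0.996). This count of 0 of 8 stands beside 0% of the 16799 probe sets. At an unadjusted p under 0.05 there was 1 of the 8 by the brightest probe sets, ARSA, beside 6.3% of all tested probe sets. The median difference of the 8 genes was 0.01, beside -0.0065 over all tested probe sets, and their median absolute difference was 0.04 beside 0.05.

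For ARSA the means were 3.08 ± 0.14 in controls and 3.22 ± 0.12 in supplemented piglets (log2 mean ± SD, n = 9 each), a difference of 0.15 (95% interval 0.01 to 0.28), or 1.11-fold. Of the 9 supplemented piglets, 6 lay above the control median. The limma p was 0.0326 before and 0.773 after adjustment, and the two-sided exact permutation test over 48620 splits gave p = 0.0331. ARSA had no second probe set. Its difference ran from 0.12 without control replicate 6 to 0.17 without control replicate 9.

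The brightest probe sets of both activator genes differed by less than the spread between piglets. PSAP was measured at 7.20 ± 0.06 and 7.16 ± 0.05, a difference of -0.04 (95% interval -0.12 to 0.05). Of the supplemented piglets, 7 of 9 lay below the control median of PSAP. Its dim second probe set was at 1.15 ± 0.13 and 0.99 ± 0.13, a difference of -0.16 with a limma p of 0.0178 before and 0.785 after adjustment in the fit without the filter (exact permutation p = 0.01999), and the control median exceeded all 9 supplemented piglets in this probe set near the floor. GM2A was measured at 3.33 ± 0.14 and 3.43 ± 0.29 by the brightest probe set, which gives a difference of 0.10 (95% interval -0.11 to 0.31). That difference fell to 0.04 without sialyllactose replicate 3. The second GM2A probe set differed by -0.10 (95% interval -0.27 to 0.07), the opposite sign, so the gene had no single direction on these arrays.

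The sugar-removing enzymes also differed by less than the spread between piglets. HEXA differed by -0.0038 (95% interval -0.11 to 0.10), a sign that turned after median centring of the arrays (0.01) or a further quantile normalization (0.01) and in 7 of 18 fits without 1 array. GLA differed by 0.02 (-0.09 to 0.14) and by -0.0015 without sialyllactose replicate 2. GLB1 differed by -0.05 (-0.22 to 0.12) and by -0.0087 without control replicate 8. For all 8 genes the 95% interval stayed within 1.5-fold in either direction, and for 7 of the 8, all but ASAH1, it stayed within 1.3-fold.

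SMPD1 showed how much the answer for a gene depended on the probe set. Its brightest probe set was at 3.12 ± 0.15 in control and 3.14 ± 0.16 with sialyllactose, a difference of 0.03 (95% interval -0.13 to 0.18) that was -0.0001 without sialyllactose replicate 3. A further probe set, whose mean of 3.11 was barely under the 3.13 of the brightest one, was at 3.02 ± 0.11 and 3.20 ± 0.14, a difference of 0.18 (95% interval 0.06 to 0.31). In that probe set the control piglets ranged from 2.89 to 3.17 and the supplemented piglets from 2.95 to 3.35, and 5 supplemented piglets lay above every control. Its limma p was 0.0072 before and 0.727 after adjustment (exact permutation p = 0.00913). The third, at a mean of 1.52, differed by 0.09 (-0.05 to 0.22). All 3 means were higher with sialyllactose, but across the 18 retinas no 2 probe sets of SMPD1 correlated past the test, with Pearson r of -0.13, -0.28 and 0.10 and Spearman rho of -0.10, -0.18 and 0.05 for the 3 pairs (permutation p of r = 0.59, 0.256 and 0.693, adjusted over 5 pairs of probe sets of 1 gene 0.858, 0.747 and 0.858). Over all genes, the median r between tested probe sets of 1 gene was 0.16 in 2823 pairs.

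**Figure D2:**
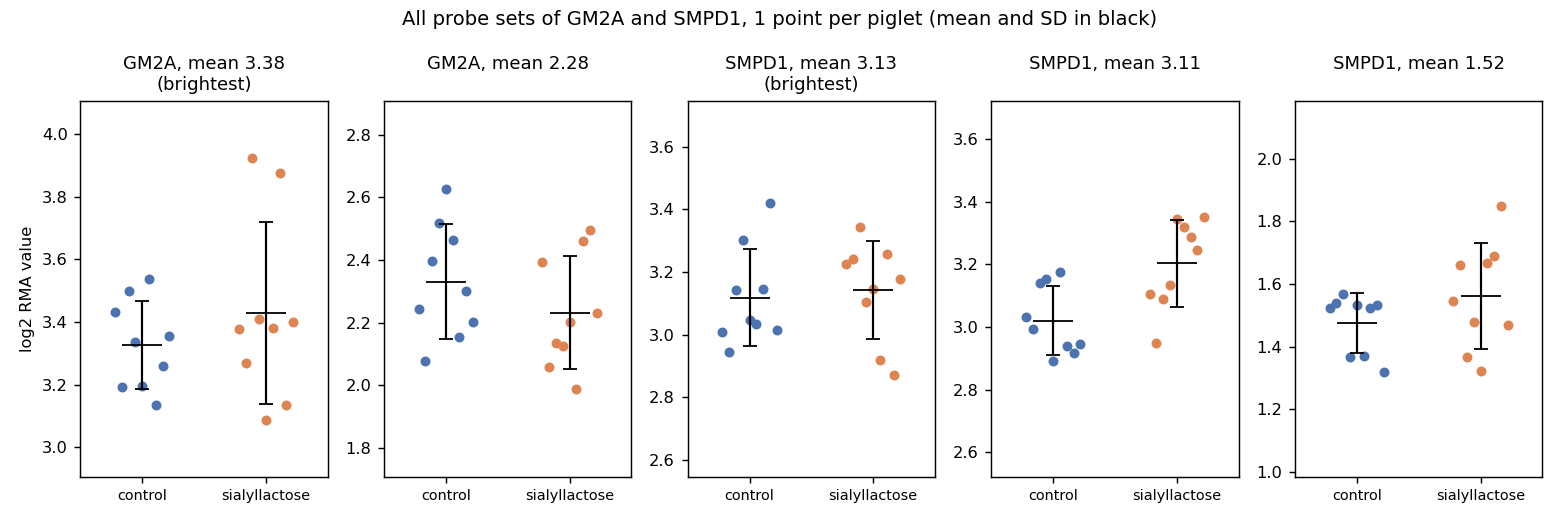
Deposited log2 values of the 2 probe sets of GM2A and the 3 of SMPD1 in the 9 control and 9 supplemented piglets, 1 point per piglet, with group mean and SD in black. The 2 highest piglets of the brightest GM2A probe set lie inside the control range in the other, and 5 supplemented piglets lie above every control in the SMPD1 probe set with a mean of 3.11 but none does in the brightest one.

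ASAH1 was measured at 1.64 ± 0.35 in controls and 1.502 ± 0.37 in supplemented piglets, a difference of -0.14 with the widest interval of the 8 genes (-0.45 to 0.18). It ran from -0.21 without sialyllactose replicate 1 to -0.06 without sialyllactose replicate 7, while 6 of 9 supplemented piglets lay above the control median. The mean and the median of ASAH1 thus pointed in different directions.

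**Figure D3:**
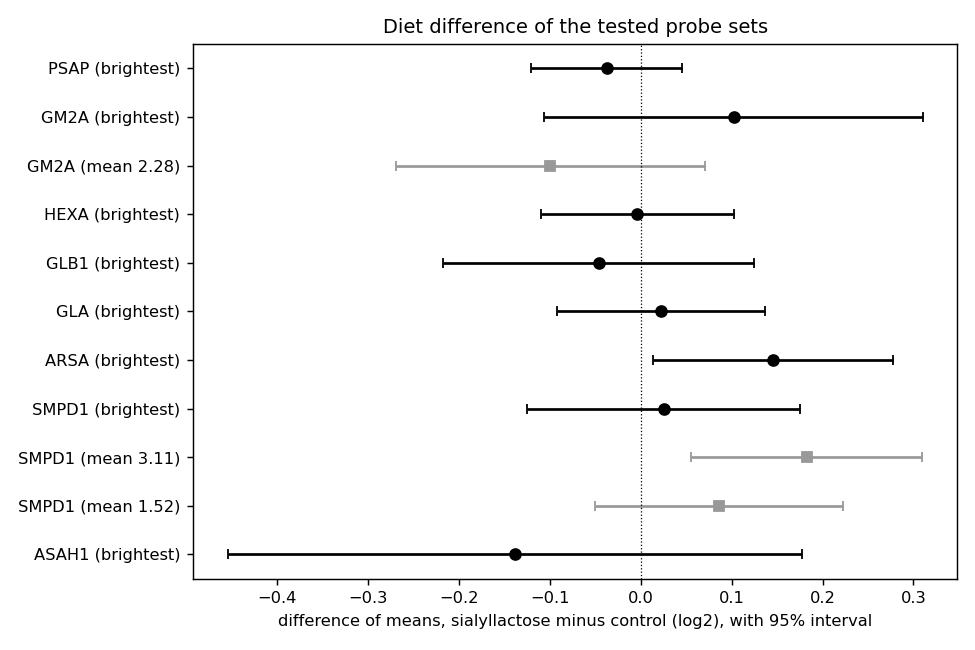
Difference of mean log2 values, sialyllactose minus control, with its 95% interval from limma, for the 11 tested probe sets; black circles are the brightest probe set of a gene and grey squares its other probe sets, labelled by mean level. The intervals of ARSA (0.01 to 0.28) and of 1 further SMPD1 probe set (0.06 to 0.31) lie above 0 before adjustment, and all others cross 0.

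The other genes of sphingolipid metabolism and of the lysosome gave no passing gene either. Of 14 listed partners of lysosomal sphingolipid breakdown, 5 were tested (NEU1, SCARB2, NPC1, NPC2 and LIPA), 2 higher and 3 lower. NPC2, a cholesterol carrier of the lysosome, was at 5.43 ± 0.17 in control and 5.35 ± 0.13 with sialyllactose, and LIPA, the acid lipase, at 4.08 ± 0.17 and 3.996 ± 0.10. NPC1, the membrane partner of NPC2, was at 6.56 ± 0.32 and 6.59 ± 0.24. The glucosylceramide and galactosylceramide hydrolases were not analysed here.

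All 3 tested genes of sphingolipid turnover outside the lysosome had higher means, SMPD2, a neutral sphingomyelinase, by 0.06, SMPD4 by 0.05 and GBA2, a glucosylceramidase outside the lysosome, by 0.0040. The GBA2 sign turned in 7 of 18 fits without 1 array. Of 5 tested genes of sphingolipid synthesis 2 were higher and 3 lower, and their differences were all small: CERS2 and CERS4, ceramide synthases, differed by -0.03 and 0.03, DEGS1, which forms the double bond of ceramide, by -0.02 and KDSR, an early reductase of the pathway, by -0.02. By the brightest probe sets, 0 of 13 genes in these 3 lists had an unadjusted p under 0.05 in limma. This count stands beside 6.3% of all tested probe sets. It depended on the probe sets used. With the mean of probe sets per gene, NPC2 (difference -0.11) and CERS2 (-0.09) lay under that unadjusted threshold. LIPA (-0.10) and SMPD4 (0.03) did not, and no gene passed after adjustment.

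Of 24 other lysosomal hydrolases and membrane proteins, 9 were higher and 15 lower, with a median difference of -0.04 and 1 gene at an unadjusted p under 0.05, beside 6.3% of all probe sets. That gene was GLMP, a lysosomal membrane protein, at 3.07 ± 0.28 in control and 2.82 ± 0.19 with sialyllactose (limma adjusted p = 0.753). ACP2, the lysosomal acid phosphatase, was at 4.56 ± 0.11 and 4.66 ± 0.08. CTSB, cathepsin B, was at 8.19 ± 0.06 in both groups, and CD63, a tetraspanin of lysosomes and late endosomes, at 7.58 ± 0.09 and 7.53 ± 0.07.

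Of 13 subunits of the proton pump that acidifies the lysosome, 4 were higher and 9 lower, with a median difference of -0.03. ATP6V0E1 was at 4.37 ± 0.12 in control and 4.21 ± 0.17 with sialyllactose (limma adjusted p = 0.761), the only subunit with an unadjusted p under 0.05, and ATP6V1F at 6.65 ± 0.06 and 6.58 ± 0.06. The brightest subunits, ATP6V0C and ATP6V1B2, differed by -0.04 and 0.03. Of 13 sorting receptors and regulators 4 were higher and 9 lower, with M6PR, a mannose 6-phosphate receptor that carries hydrolases to the lysosome, at 6.87 ± 0.12 and 6.96 ± 0.05, and RRAGA, a small GTPase of nutrient signalling at the lysosome, at 4.88 ± 0.15 and 4.78 ± 0.12. RRAGC, its partner, differed by -0.05. None of the 13 had an unadjusted p under 0.05, beside 6.3% of all probe sets.

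The third question was whether the 8 genes rose and fell together between retinas. Across 18 retinas and 28 pairs, 16 correlations were above 0 and 12 below, from -0.38 to 0.38, and no pair passed a permutation test, adjusted (lowest adjusted p = 0.633) or unadjusted (lowest p = 0.119). Spearman's rho gave 0 pairs as well, with a lowest adjusted p of 0.636. The median r of the 28 pairs was 0.07, beside 0.0088 over all pairs of the 5710 tested genes, of which 51.2% were above 0. The quartiles over all gene pairs were -0.18 and 0.20, and 10 of the 28 pairs lay between them.

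Correlations of the activators with the enzymes had both signs, and none passed the test. GM2A and HEXA, which act together on GM2 ganglioside, had r = -0.36 (rho -0.36, permutation p = 0.139 and 0.143), and r was -0.35 without the 2 retinas farthest from the GM2A median. Single retinas moved this r more, to -0.57 without sialyllactose replicate 7 and to -0.10 without sialyllactose replicate 3. PSAP and ARSA, which meet at sulfatide through a saposin, had r = -0.38 (rho -0.38, permutation p = 0.119 and 0.121), and -0.26 without the 2 farthest retinas. It ran from -0.59 without control replicate 6 to -0.19 without sialyllactose replicate 6. Within the control group that correlation was 0.05 and within the sialyllactose group -0.66. PSAP and ASAH1, whose enzyme is helped by a saposin, had r = 0.38 (rho 0.40, permutation p = 0.12 and 0.102), with 0.40 within control, 0.28 within sialyllactose and 0.34 without the 2 farthest retinas. PSAP and GLB1 had r = 0.28 (rho 0.33, permutation p = 0.259 and 0.178), and PSAP and SMPD1 likewise r = 0.28 (rho 0.28, permutation p = 0.259 and 0.248). PSAP and GLA, which meet at globotriaosylceramide, had r = -0.045 (permutation p = 0.86), with -0.47 within control and 0.52 within sialyllactose. The adjusted p over the 28 pairs was at least 0.633 for each of these relations.

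No correlation between enzymes that follow each other on a pathway passed the test either. GLB1, which makes the substrate of HEXA, had r = 0.16 with it (rho 0.18, permutation p = 0.518 and 0.464). SMPD1 and ASAH1, which make and cleave ceramide, had r = 0.08 (rho 0.10, permutation p = 0.741 and 0.695), and -0.23 without the 2 farthest retinas. The other pairs named here are not successive steps, and none of them passed the test. GLB1 and ASAH1 had r = 0.38 (rho 0.27, permutation p = 0.124 and 0.276), which was 0.28 without the 2 retinas farthest from the GLB1 median. GM2A and SMPD1 had r = 0.36 (rho 0.18, permutation p = 0.14 and 0.464), which fell to 0.04 without the 2 retinas farthest from the GM2A median, so that relation rested on those 2 retinas. ARSA and SMPD1 had r = -0.32 with the brightest SMPD1 probe set (rho -0.30, permutation p = 0.19 and 0.224) and 0.25 with the mean of the SMPD1 probe sets, and with the brightest it ran from -0.48 without control replicate 6 to -0.17 without control replicate 8. In 15 of the 28 pairs r had the same sign in both diets.

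**Figure D4:**
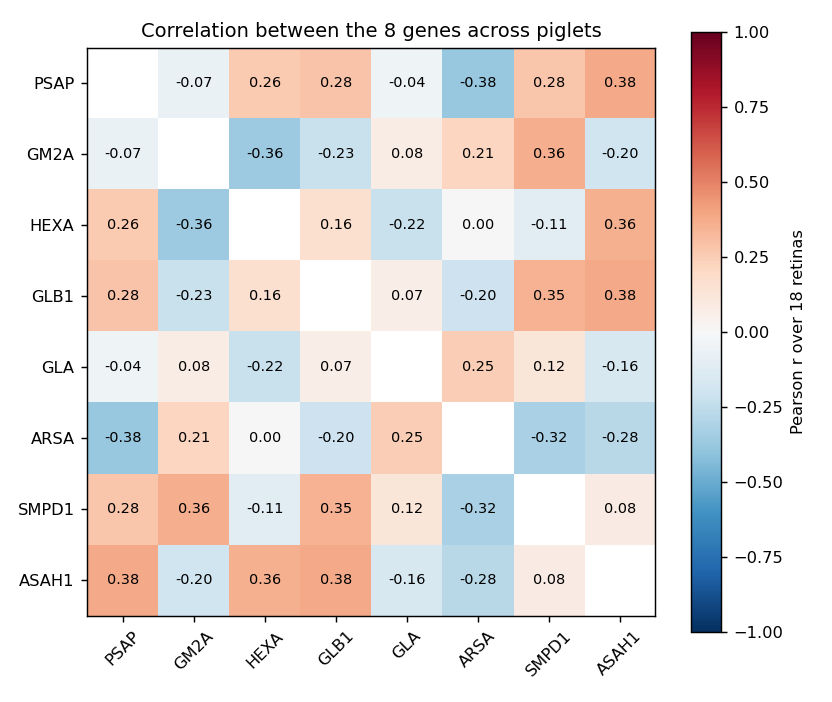
Pearson r of the brightest probe sets of the 8 genes across 18 retinas; red is positive and blue negative on a scale from -1 to 1. Values run from -0.38 (PSAP with ARSA) to 0.38 (PSAP with ASAH1).

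Markers of retinal cell types were set beside the same values. Over 48 relations between the 8 genes and 6 marker scores (the mean deviation of a list's genes from their means), none passed a permutation test after adjustment (lowest adjusted p = 0.267) and 2 had an unadjusted p under 0.05. GLB1 had r = 0.60 with the score of 8 interneuron and ganglion cell markers (rho 0.54, permutation p = 0.00632 and 0.0217, adjusted 0.267 and 0.764), with 0.76 within control, 0.45 within sialyllactose and 0.68 without the 2 farthest retinas. The summed level of these markers ranged from 9.997 to 10.7 in controls and from 9.96 to 10.5 in supplemented piglets.

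PSAP had r = 0.59 with the score of 12 Mueller glia markers (rho 0.43, permutation p = 0.0111 and 0.0777, adjusted 0.267 and 0.764). It was 0.57 within control and 0.45 within sialyllactose. It fell to 0.20 without the 2 retinas farthest from the PSAP median, so its size depended on those retinas. The summed level of the Mueller glia markers ranged from 11.7 to 12.1 in controls and from 11.6 to 12.0 in supplemented piglets, and 11 of the 12 had lower means with sialyllactose, none past the adjusted test. Their part in the PSAP values was not tested. With the score of the 4 tested microglia markers, r was 0.34 for PSAP (rho 0.33, permutation p = 0.172 and 0.182) and 0.33 for ASAH1 (rho 0.49, permutation p = 0.184 and 0.0407), with adjusted p of 0.901 for both r. Without the 2 farthest retinas these r were 0.14 and 0.20.

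Measures of the arrays themselves were set beside the genes in the same way, in 24 relations, of which none passed after adjustment (lowest adjusted p = 0.129), while 3 had an unadjusted p under 0.05. ASAH1 had r = 0.63 with the median of the array over all tested probe sets (rho 0.49, permutation p = 0.00539 and 0.0397, adjusted 0.129 and 0.716), with 0.65 within control, 0.60 within sialyllactose and 0.48 without the 2 farthest retinas. The array medians ranged from 3.86 to 3.91 in controls and from 3.85 to 3.88 in supplemented piglets. PSAP had r = 0.47 with the array median (rho 0.38, permutation p = 0.0468 and 0.119, adjusted 0.375 and 0.716), and 0.37 without the 2 farthest retinas. GM2A had r = 0.49 with the difference between the 3′ and 5′ actin control probe sets, a sign of RNA or labelling quality (rho 0.35, permutation p = 0.0373 and 0.152, adjusted 0.375 and 0.729), which was 0.22 without the 2 farthest retinas. That difference ranged from 2.87 to 3.68 in controls and from 2.999 to 3.801 in supplemented piglets. ARSA had r = 0.37 with the actin difference (permutation p = 0.133, adjusted 0.724), with 0.85 within control and -0.29 within sialyllactose. With the same difference for GAPDH it had r = 0.11 (permutation p = 0.675), with 0.76 within control and -0.44 within sialyllactose. The part of these array measures in the ASAH1, PSAP, GM2A and ARSA values was not tested.

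The genes whose pattern over the 18 retinas was most like that of each of the 8 were found among 5709 other genes by Pearson r, as a description. For PSAP they were NDUFA10 (0.79) and CLU (0.77), for GM2A SERPINB1 (0.82) and NUP37 (0.68), and for HEXA S100B (0.81) and KLHDC3 (0.79). For GLB1 they were GRK4 (0.74) and YWHAB (0.72), for GLA SPNS1 (0.76) and DBR1 (0.75), and for ARSA CST6 (0.84) and KCNMB1 (0.81). For SMPD1 they were USP7 (0.79) and FOXP1 (0.76) and for ASAH1 DDOST (0.81) and APCDD1 (0.78). None of these 16 genes was another of the 8 or belonged to the lysosomal and sphingolipid lists used here, which do not hold every lysosomal gene. CLU and S100B were on the list of Mueller glia markers. For each of the 8 genes, these r are the 2 largest of 5709 values over 18 arrays that share their processing. Toward the genes of the lists, the median r of each of the 8 was set beside its median over all genes. Toward the 5 tested lysosomal sphingolipid breakdown partners it was highest for HEXA, at 0.36 beside 0.04 over all genes, and lowest for GLA, at -0.21 beside -0.05. Toward the 3 tested genes of turnover outside the lysosome it ran from -0.07 for GLA to 0.22 for PSAP. For the 5 tested genes of synthesis it ran from -0.25 for GLA to 0.12 for ASAH1. Medians over so few genes are imprecise, and they were not tested. Toward the sorting receptors and regulators the highest was ASAH1, at 0.29 beside 0.06. Toward the proton pump it ran from -0.31 for ARSA, beside -0.04, to 0.20 for PSAP, beside 0.07, and toward the other lysosomal hydrolases and membrane proteins from 0.01 for GLB1, beside 0.04, to 0.08 for SMPD1, beside 0.01.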

How the data were processed

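The authors deposited log2 values, 1 for each probe set on each array, made with RMA in Affymetrix Expression Console by the submitters' processing notes. The scale was read from the values, and the RMA settings are not given in the sources used here. RMA brings the arrays to nearly 1 distribution and makes no detection call. For the present comparisons 124 control probe sets and then the 30% of probe sets with the lowest mean over 18 arrays (7200) were left out, which left 16799. Names came from the platform annotation, and all 12 probe sets kept their symbol through the gene identifier in a RefSeq table. No coordinates and no sequences are given, since the sources used here name no build and hold no sequence.

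Diets were compared with limma 3.58.1 in R 4.3.3 (lmFit and eBayes) on 18 arrays and no covariates, adjusted by Benjamini-Hochberg over all tested probe sets at a threshold of 0.05, and for the 8 genes by exact permutation. This fit was tested on simulated data. Correlations used 100000 permutations, adjusted over the pairs of a family. The 8 genes and the lists were chosen with earlier results of these data known. Of other genes, the text names in each list the 2 with the smallest p and the 2 brightest, the 2 genes most like each of the 8, and marker genes; NEU1 and SCARB2 were named to complete their list. The array measures and cell type markers named for quality were added beside these. Each piglet is 1 sample. No batch or scan date is labelled, so none was tested, and the number of arrays limits the precision.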

Additional observations from a re-analysis of the deposited data

How the results depend on the processing

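Over 8 alternatives of the diet comparison and 18 fits without 1 array, 0 of the 8 genes and 0 of all tested probe sets or genes passed an adjusted p of 0.05 in limma, and the lowest adjusted p of any of the 8 was 0.562. The 50% filter left no value for GLB1 and ASAH1. The median difference of the 8 genes was 0.01 with the replicate block and -0.0012 with the mean of probe sets per gene. It was 0.027 with median centring, 0.022 after quantile normalization and 0.024 over the 6 genes left by the 50% filter. Without 1 array it ran from -0.0081 to 0.02 over the 8 genes. The labels do not say what the replicate numbers mark, and they were not taken to pair the piglets, since deviations of same-numbered arrays correlated above 0.1 in 3 of 9 pairs (median 0.07); 6 of 18 arrays correlated best with their own number, a hint from the data and not from the design. With the replicate block the count of calls stayed at 0, and the unadjusted limma p was 0.07165 for ARSA and 0.0179 for the SMPD1 probe set with a mean of 3.11. In the other alternatives on all arrays, the unadjusted limma p of ARSA ran from 0.0173 with array weights to 0.0479 with an intensity trend. Signs near 0 turned: HEXA was 0.014 with median centring, 0.0098 after quantile normalization and 0.0083 with array weights; with array weights SMPD1 was -0.0006 and NPC1 -0.0028; DEGS1 was 0.0003 after quantile normalization; CTSB was 0.012 with median centring and 0.015 after quantile normalization; ATP6V1B2 was -0.015 with the mean of its probe sets. Without 1 array HEXA ran from -0.021 to 0.019, GLA from -0.0015 to 0.049, SMPD1 from -0.0001 to 0.063, NPC1 from -0.035 to 0.089, GBA2 from -0.0445 to 0.0443, DEGS1 from -0.0444 to 0.0185, KDSR from -0.048 to 0.017 and CTSB from -0.017 to 0.0037. The mean of probe sets gave SMPD1 0.10 in place of 0.03 and GM2A 0.0014 in place of 0.10. With that mean, SMPD1 joined ARSA at an unadjusted limma p under 0.05 (0.0142 before and 0.723 after adjustment). No pair of the 8 genes passed under any of the 7 alternatives of the correlations or without 1 array. The median r over the 28 pairs was -0.017 with the mean of probe sets per gene and ran from 0.03 to 0.09 without 1 array. Within control, r was -0.11 for GM2A and SMPD1 and 0.0502 for PSAP and ARSA, and with the mean of probe sets it was 0.25 for ARSA and SMPD1. For ASAH1, the second PSAP probe set and the dimmest SMPD1 probe set, signal close to the floor limits what a difference can show.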
